A study of Mus musculus with 32 samples.

Results

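Pmel CD8+ T cells recovered from skin were compared with Pmel cells recovered from spleen, using the 8 libraries labelled skin and spleen (4 of each) out of 32 libraries in the series. Every Pmel cell bears the same transgenic receptor, which recognises an antigen of melanocytes, and the cells were isolated as CD8+ Thy1.1+. Both groups came from C57BL/6 mice aged 16 weeks with melanoma-associated vitiligo, a loss of pigment that follows an immune response to melanoma. The skin was taken 45 days after tumor surgery and was digested with collagenase IV and DNase I, whereas no time and no way of dissociation is given for the spleen in the labels. Tissue, dissociation and any difference in time therefore cannot be told apart in this comparison. The labels do not state that the samples came from separate animals, so every p-value refers to the spread among the deposited libraries, which may be technical.

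A memory CD8+ T cell that settles in the epidermis stays there for long periods, does not return to the blood, and can be triggered by antigen shown by neighbouring cells. A memory T cell in the spleen is in exchange with blood and is mostly at rest. When a T cell receptor is engaged, calcium, MAP kinase and NF-kappaB signals first switch on short-lived transcription factors and then cytokines, and the same signals switch on the phosphatases, IkappaB proteins and RNA-destroying proteins that end the response. Many of these early genes are also known to respond to warming and enzyme treatment during tissue dissociation. The genes below are ordered from these factors to cytokines, feedback proteins, receptors, stress proteins and metabolism, and then to the genes of resting, circulating cells. Genes of tissue residency itself are only counted: of 26 tested, 9 were higher and 6 lower in skin (5 and 3 when only skin and spleen were fitted, 12 and 4 without replicate 4 of both, and 5 higher without skin replicate 1).

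The measured quantity was TPM, a transcript share scaled to the same sum in every library, so depth is unknown and between 20399 and 34211 genes lay above 0. The 18 T cell identity genes, among them the CD8 and CD3 chains, summed to 26424, 35629.5 and 30981.5 TPM in skin replicates 1 to 3 and to 12312 to 32673 TPM in spleen, but to only 5802 TPM in skin replicate 4. In that library the predicted gene Gm10800 alone held 261845 TPM. Keratinocyte markers were highest there as well, at 8628 TPM against 521 to 3604 TPM in the other skin libraries and 23 to 28.8 TPM in spleen. Melanocyte markers reached 204 TPM there and at most 18 TPM in any other of the 8 libraries. Skin replicate 3 held the most monocyte and macrophage RNA (8219 TPM, against 391 to 796 TPM in the other skin libraries and 758 to 5478 TPM in spleen) and the most mast cell RNA (166 TPM). Its class II MHC RNA, 10668.5 TPM, was the highest in skin and below the 17382 TPM of spleen replicate 4. In spleen, B cell markers summed to 1586, 1909, 9598 and 19233 TPM in replicates 1 to 4, against 26.4 to 140.2 TPM in skin, and replicate 4 also had 3723 TPM of neutrophil markers. Markers of CD4 and regulatory, gamma delta, endothelial and muscle cells summed to at most 63.3 TPM in any of the 8 libraries. In the list of mast cell and basophil markers 1, Mcpt8, was at 0 in all skin libraries. Fewer cells of a type and less RNA per cell cannot be told apart in such bulk samples.

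In the test over all genes (limma on log2(TPM + 1), called at an adjusted p under 0.05), 855 of 19738 genes were higher in skin (4.33%) and 660 were lower (3.34%). Together these calls made up 7.68% of the genes tested. The 4 skin and 4 spleen values did not overlap for 9.09% of the genes (3.4% higher and 5.69% lower in skin). The median change over all genes was -0.12 log2, and it was 0.03 when the libraries were rescaled without predicted, mitochondrial and marker genes. Without both replicates 4, 1069 genes were higher and 368 lower, and 699 and 320 of the original calls were kept. Without skin replicate 4 alone, 409 genes were lower. When only the skin and spleen libraries entered the fit, 154 of 19738 genes were higher and 117 lower. The spread of each gene then rests on 8 libraries instead of 32. Of 126 called genes named with values here, 62 were also called in that fit. In the main fit all 8 groups share 1 spread, which need not be that of skin and spleen. The summed AP-1 and ATF genes, for example, ranged over 773 to 841 TPM in day 12 lymph node and 3530 to 13592 in skin. With weights per group, 651 genes were higher and 455 lower. For the gene groups below, the count in the fit of 2 groups, skin and spleen alone, and the count without both replicates 4 are given beside the main one. Of 964 tested members in 32 functional lists, 166 were higher and 72 lower.

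**Figure D1:**
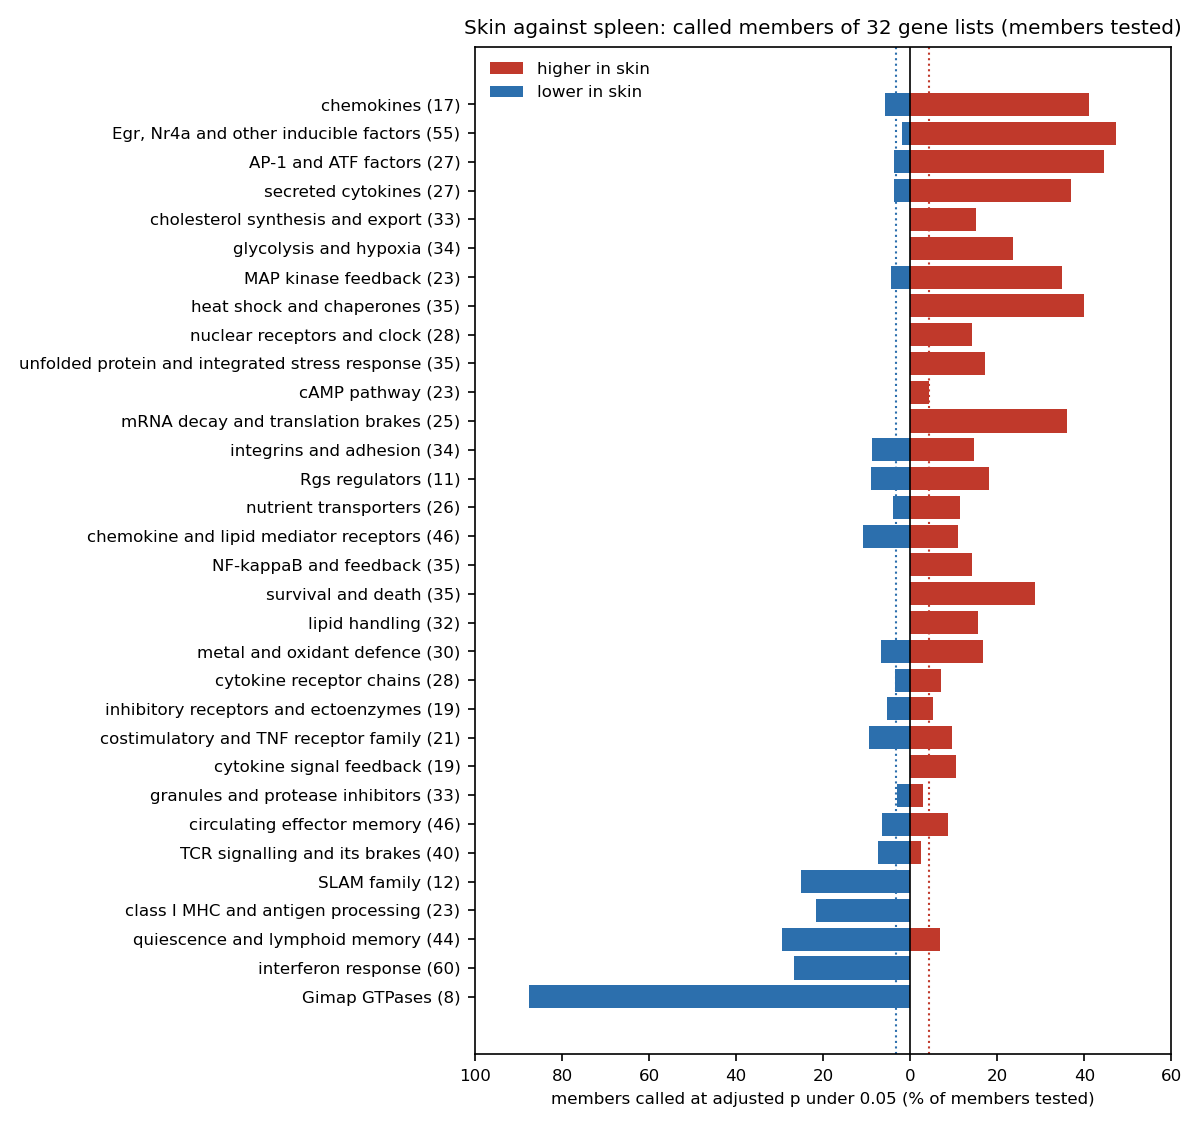
Share of tested members of each of the 32 lists that were higher (red, to the right) or lower (blue, to the left) in skin at an adjusted p under 0.05, ordered by the median log2 change of the list, with the number of members tested in parentheses. Dotted lines mark the shares over all genes, 4.33% higher and 3.34% lower. Inducible factors, cytokines and chemokines lie at the top, and the Gimap, interferon and quiescence lists at the bottom.

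Among the functional lists, those of factors that follow stimulation had the largest shares of members higher in skin. These lists together hold 166 of the 855 higher genes. Keratinocyte and fibroblast markers, counted apart from them, were higher in larger shares. Of 27 tested AP-1 and ATF factors, the leucine zipper proteins that bind as pairs, 12 rose and 1, Bach2, fell, with a median of 1.14 log2 (8 and 0 in the fit of 2 groups, 13 and 0 without both replicates 4). Of 55 tested Egr, Nr4a and other inducible genes, 26 rose and 1, Irf2, fell, with a median of 1.54 log2 (11 and 0 in the fit of 2 groups, 29 and 0 without both replicates 4). Junb, a Jun protein that partners Fos and Batf, measured 7992, 7594, 5162 and 1796 TPM in skin replicates 1 to 4 and 81.3, 126, 214 and 362 TPM in spleen. Every skin library lay above every spleen library, and replicate 4 was the lowest in skin and the highest in spleen (4.85 ± 0.47 log2, adjusted p = 3.53e-08).

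Crem, which encodes cAMP-responsive activators and the early repressor ICER, stood at 1249, 1265, 929 and 188 TPM in skin and at 21.6, 21.1, 28.9 and 25.7 TPM in spleen. Its spleen values were nearly equal, while skin replicate 4 lay far below the other 3 skin libraries (4.85 ± 0.51 log2, adjusted p = 1.26e-07). Fosb and Fosl2, which encode other Fos proteins, rose by 5.29 ± 0.48 and 3.57 ± 0.41 log2 without overlap (adjusted p = 1.23e-08 and 5.91e-07). Fosb was at 0 to 0.76 TPM in spleen and at 36.1 to 86.1 TPM in skin. Jun rose by 3.79 ± 0.82 log2 (adjusted p = 0.00295), but its value in spleen replicate 4, 56 TPM, was above that in skin replicate 4, 48 TPM. Fos itself was at 0.11, 1.42, 9.22 and 96 TPM in the 4 spleen libraries and at 825 to 1952 TPM in skin (7.57 ± 0.90 log2, adjusted p = 1e-06). Atf3, a stress-induced zipper factor, was at 94.8 to 422 TPM in skin and 0 to 8.65 TPM in spleen (6.82 ± 0.73 log2, adjusted p = 1.65e-07). Spleen replicate 4 was also the highest spleen library for Atf3, Nr4a1 and Nr4a2, and skin replicate 4 was the lowest skin library for all 12 AP-1 and ATF factors that rose. Jun was lost in the fit of 2 groups (adjusted p = 0.19).

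The orphan receptors Nr4a1, Nr4a2 and Nr4a3, which T cell receptor signals induce within a short time, rose by 7.48 ± 0.81, 6.47 ± 0.70 and 4.93 ± 0.47 log2 (adjusted p = 2.27e-07, 1.78e-07 and 2.46e-08). Nr4a1 was at 2954, 2189, 1124 and 533 TPM in skin and 6.78, 0.56, 5.63 and 47.1 TPM in spleen, and no library of one group reached the other. Ier5l, an immediate early gene, was at 321, 413, 378 and 11 TPM in skin and at 0 to 0.68 TPM in spleen, with skin replicate 4 again far below the rest (6.98 ± 0.91 log2, adjusted p = 4.45e-06). Egr2, a zinc finger factor that restrains T cell responses, rose by 3.50 ± 0.85 log2 (adjusted p = 0.00765), with 10.04 to 58.4 TPM in skin and 0 to 7.24 TPM in spleen, and Tgif1, a repressor of TGF-beta and retinoid signalling, rose by 3.21 ± 0.51 log2 (adjusted p = 7.06e-05). Klf6, an abundant zinc finger factor, rose by 2.14 ± 0.35 log2 (adjusted p = 0.000112), with 200.1 to 621 TPM in skin and 49.1 to 129 TPM in spleen. In the fit of 2 groups Ier5l and Tgif1 passed (adjusted p = 0.023 and 0.0473), and Egr2 and Klf6 did not (adjusted p = 0.0963 and 0.0555).

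Few hormone and clock factors passed. Of 28 tested nuclear receptors and clock genes 4 rose and 0 fell, with a median of 0.60 log2 (0 rose in the fit of 2 groups, 8 without both replicates 4). Nr3c1, the glucocorticoid receptor, was at 231, 272, 163 and 45.1 TPM in skin and 26.1, 48.3, 28.3 and 67.8 TPM in spleen. Skin replicate 4 lay inside the spleen range, and the other 3 skin libraries above it (1.87 ± 0.40 log2, adjusted p = 0.0028, and 2.69 log2 with adjusted p = 3.1e-06 without both replicates 4). Rora, a retinoid-related orphan receptor, rose by 2.28 ± 0.59 log2 (adjusted p = 0.013, and 0.0579 without skin replicate 2). The clock repressors Per1 and Ciart rose by 2.69 ± 0.46 and 1.80 ± 0.44 log2 (adjusted p = 0.00019 and 0.00827).

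In all genes with a sequence, the 200 bases before the RefSeq start (GRCm38.p6) were searched on both strands for the palindrome TGACGTCA. This is the full cAMP response element bound by Creb, Crem and Atf proteins. It was found in 20 of 586 called-higher genes with a sequence (3.41%), in 5 of 427 called-lower genes (1.17%), in 2.48% of 11307 tested genes with a sequence and in 1.55% of all 27025 promoters. Most higher genes thus lacked the element, and the difference between these shares was not tested. The higher genes that hold it include a phosphatase, a growth factor, an RNA decay gene and a translation gene described below. These 4 stretches are shown as picked examples, with the element in capitals, 5′ to 3′ on the strand of the gene. A match is a description of the sequence and not a measured binding site.
Dusp1, chr17:26508473-26508672, minus strand: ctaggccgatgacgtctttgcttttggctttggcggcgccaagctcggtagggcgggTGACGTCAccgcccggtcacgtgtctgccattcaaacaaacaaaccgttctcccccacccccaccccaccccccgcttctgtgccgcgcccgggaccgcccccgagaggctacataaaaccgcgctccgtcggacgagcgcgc
Areg, chr5:91139399-91139598, plus strand: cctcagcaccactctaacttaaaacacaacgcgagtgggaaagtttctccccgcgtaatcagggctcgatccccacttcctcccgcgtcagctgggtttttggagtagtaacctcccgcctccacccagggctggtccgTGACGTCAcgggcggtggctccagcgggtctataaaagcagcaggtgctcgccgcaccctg
Btg2, chr1:134079156-134079355, minus strand: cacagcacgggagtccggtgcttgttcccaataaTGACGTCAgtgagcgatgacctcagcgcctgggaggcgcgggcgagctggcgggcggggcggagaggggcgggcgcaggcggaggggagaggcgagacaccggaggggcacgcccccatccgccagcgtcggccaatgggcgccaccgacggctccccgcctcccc
Ppp1r15a, chr7:45526269-45526468, minus strand: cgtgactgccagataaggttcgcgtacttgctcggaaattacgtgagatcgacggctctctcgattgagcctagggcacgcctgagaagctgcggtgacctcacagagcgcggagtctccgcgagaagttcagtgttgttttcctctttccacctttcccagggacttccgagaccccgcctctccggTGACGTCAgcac
The element begins 143 bases before the start in Dusp1, 61 in Areg, 166 in Btg2 and 12 in Ppp1r15a.

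Some genes of secreted factors rose. Of 27 tested cytokine genes 10 rose and 1 fell, with a median of 0.98 log2 (7 and 0 in the fit of 2 groups, 13 and 1 without both replicates 4). Tnfsf11, which encodes RANKL, a ligand for myeloid and epithelial cells, was at 152, 114, 115 and 22.7 TPM in skin and at 0, 0, 0 and 3.69 TPM in spleen. It was listed at 0 in 3 of the spleen libraries, and every skin library was above the fourth, replicate 4 (5.82 ± 0.64 log2, adjusted p = 2.47e-07). Areg, an epidermal growth factor receptor ligand linked to tissue repair, was at 40.2, 90.0, 41.3 and 14.7 TPM in skin and at 0 to 0.2 TPM in spleen (5.19 ± 0.58 log2, adjusted p = 2.86e-07). Csf2, the granulocyte-macrophage growth factor GM-CSF, was at 104, 61.8, 42.4 and 19.4 TPM in skin and 0 to 1.86 TPM in spleen (4.93 ± 0.50 log2, adjusted p = 9.2e-08). These 3 genes were close to absent in spleen and separated the groups with a wide gap, as the plot of inducible genes by library shows.

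Tnf, the inflammatory cytokine, was at 191, 239, 78.9 and 78 TPM in skin and 1.85 to 8.95 TPM in spleen (4.69 ± 0.57 log2, adjusted p = 1.49e-06). Il2, the T cell growth factor, was at 53.8, 91.5, 63.5 and 23.5 TPM in skin and 5.3, 27.3, 0 and 7.06 TPM in spleen (3.11 ± 0.69 log2, adjusted p = 0.00368), with spleen replicate 2 above skin replicate 4. Tnfsf9, the ligand of 4-1BB, rose by 3.24 ± 0.76 log2 (adjusted p = 0.00576), and Vegfa, the endothelial growth factor, by 3.09 ± 0.73 log2 (adjusted p = 0.00642). Ltb, one chain of the lymphotoxin that organises lymphoid tissue, was the member that fell (-2.29 ± 0.45 log2, adjusted p = 0.00108). It was at 67.1 to 349.7 TPM in skin and 862 to 1629 TPM in spleen, and in spleen it was accompanied by the B cell markers given above, whose part in the difference was not tested. In the fit of 2 groups Il2, Tnfsf9 and Ltb were lost (adjusted p = 0.172, 0.0578 and 0.106).

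**Figure D2:**
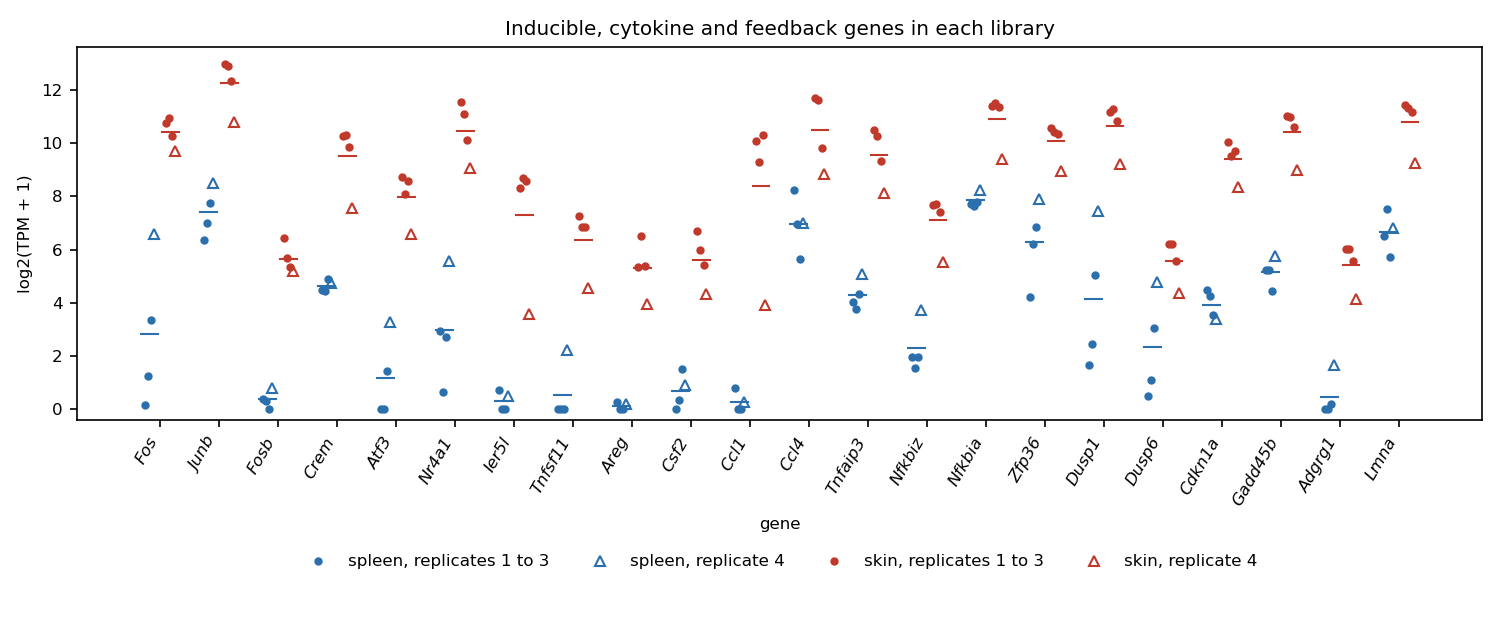
Level of 22 inducible, cytokine, feedback and structural genes in each library as log2(TPM + 1), with spleen in blue and skin in red, replicates 1 to 3 as points, replicate 4 as an open triangle and the mean of 4 libraries as a line. Skin libraries lie above spleen libraries for each gene shown except Dusp6, where skin replicate 4 (19.6 TPM) is below spleen replicate 4 (26.6 TPM).

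Most of the called chemokine genes rose. Of 17 tested, 7 rose and 1 fell, with a median of 2.92 log2 (1 and 0 in the fit of 2 groups, 8 and 1 without both replicates 4). Ccl1, which attracts cells with the receptor Ccr8, was at 1080.4, 633, 1278 and 14.1 TPM in skin and at 0 to 0.74 TPM in spleen (8.14 ± 1.08 log2, adjusted p = 5.62e-06, and 0.0252 in the fit of 2 groups). Its own receptor gene Ccr8 was at 279, 415, 335 and 84.2 TPM in skin and 20.6, 99.4, 21.2 and 30.0 TPM in spleen (2.78 ± 0.80 log2, adjusted p = 0.027). Spleen replicate 2 lay above skin replicate 4 for Ccr8. The Ccr8 call was lost on leaving out any 1 of skin replicates 1 to 3 or spleen replicates 1, 3 or 4, with adjusted p up to 0.0881.

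Ccl4, a chemokine released by activated CD8+ T cells, was at 3324, 3136, 898 and 458 TPM in skin and 302, 124, 48.9 and 127 TPM in spleen (3.53 ± 0.53 log2, adjusted p = 3.62e-05). Ccl5, a chemokine that memory cells keep as stored message, went the other way, at 3036, 3316, 3158 and 467 TPM in skin and 23419, 21670.4, 5067 and 5757 TPM in spleen (-2.49 ± 0.65 log2, adjusted p = 0.0145). Spleen replicates 1 and 2 were about as high as each other and far above replicates 3 and 4, and all skin libraries lay below. Neither gene was called in the fit of 2 groups (adjusted p = 0.0756 and 0.262). Without skin replicate 4 or spleen replicates 1 or 2 the adjusted p of Ccl5 was 0.0880, 0.0633 and 0.0630.

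Cxcl1, Ccl2 and Ccl7, which recruit neutrophils and monocytes, were also among the 7. Cxcl1 was at 2.44, 28.8, 66.6 and 12.3 TPM and Ccl7 at 3.24, 19, 465 and 3.28 TPM in skin replicates 1 to 4, with both highest in replicate 3, the skin library with the most macrophage, fibroblast and mast cell RNA. Cxcl1 was at 0 to 0.21 TPM in spleen (4.02 ± 0.88 log2, adjusted p = 0.00313). Ccl7 was at 0 to 1.11 TPM in spleen (4.03 ± 1.17 log2, adjusted p = 0.0289, and 0.162 without skin replicate 3). Its call was also lost without skin replicate 2 or spleen replicates 1, 2 or 4 (adjusted p between 0.0555 and 0.0676). The part of the other cells in these 2 genes was not tested.

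Some genes that inhibit or modulate NF-kappaB rose. Of 35 tested NF-kappaB genes 5 rose and 0 fell, with a median of 0.27 log2 (4 rose in the fit of 2 groups, 8 without both replicates 4). Tnfaip3, which encodes the ubiquitin-editing enzyme A20, was at 1453, 1222, 643 and 277 TPM in skin and 15.5, 12.8, 19.2 and 33.1 TPM in spleen. The lowest skin library was several times above the highest spleen library (5.24 ± 0.57 log2, adjusted p = 2.27e-07). Nfkbia, the classical inhibitor IkappaB-alpha, was at 2672, 2884, 2605 and 677 TPM in skin and 208, 199, 221 and 304 TPM in spleen (3.06 ± 0.38 log2, adjusted p = 1.75e-06). The nuclear IkappaB genes Nfkbiz and Nfkbid rose by 4.79 ± 0.46 and 4.30 ± 0.56 log2 (adjusted p = 2.47e-08 and 3.59e-06), and Nfkbid reached 919.7 TPM in skin replicate 1. These 4 genes were called in the fit of 2 groups as well, and the fifth member that rose was the kinase gene Map3k8. The subunit genes Rel, Rela, Relb, Nfkb1 and Nfkb2 were among the 30 that did not pass, as were other inhibitors such as Nfkbib, Nfkbie and Cyld.

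Of these inhibitors, Tnfaip3 and Nfkbia hold the motif GGG, any 2 bases and TTTCC, a common form of the kappaB site, close to their starts, and their upstream 200 bases are shown for that reason with the match in capitals. The match is on the opposite strand in both, beginning 12 bases before the start in Tnfaip3 and 29 in Nfkbia. Searched on both strands, the motif was found in 1.15% of all promoters, 1.32% of tested genes, 1.88% of called-higher genes and 2.34% of called-lower genes, so the share was not larger among higher than among lower genes.
Tnfaip3, chr10:19015411-19015610, minus strand: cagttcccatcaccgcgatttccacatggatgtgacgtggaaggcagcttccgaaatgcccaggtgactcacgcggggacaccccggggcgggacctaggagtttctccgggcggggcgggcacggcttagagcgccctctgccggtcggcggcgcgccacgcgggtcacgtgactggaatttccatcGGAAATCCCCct
Nfkbia, chr12:55492648-55492847, minus strand: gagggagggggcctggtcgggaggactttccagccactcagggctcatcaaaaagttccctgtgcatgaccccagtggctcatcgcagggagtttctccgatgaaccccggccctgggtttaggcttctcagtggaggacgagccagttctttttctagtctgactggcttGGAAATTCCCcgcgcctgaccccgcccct

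Some brakes on MAP kinases rose. Of 23 tested members 8 rose and 1 fell, with a median of 0.62 log2 (3 and 1 in the fit of 2 groups, 9 and 1 without both replicates 4). Dusp5, a nuclear phosphatase of Erk, was at 745, 719, 621 and 186 TPM in skin and 56.3, 41.7, 30.5 and 59.5 TPM in spleen (3.43 ± 0.50 log2, adjusted p = 2.1e-05). Its cytoplasmic relative Dusp6 was at 73.9, 72.6, 46.9 and 19.6 TPM in skin and 0.41, 1.13, 7.34 and 26.6 TPM in spleen, so that spleen replicate 4 overlapped skin (3.24 ± 0.59 log2, adjusted p = 0.000412). Dusp1, which acts on p38 and Jnk, ran from 2.21 TPM in spleen replicate 1 to 173 TPM in spleen replicate 4, and over 588 to 2522 TPM in skin (6.47 ± 0.77 log2, adjusted p = 9.29e-07). Dusp4 and the receptor signalling inhibitor Spry1 rose by 3.60 ± 0.69 and 3.77 ± 0.87 log2 (adjusted p = 0.000851 and 0.00497). Dusp4, Dusp6 and Spry1 were lost in the fit of 2 groups (adjusted p = 0.0954, 0.159 and 0.14).

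Rasgrp2, the calcium-dependent activator of Rap1 that T cells use to engage integrins, was the member that fell. It measured 40.8, 38.1, 48.7 and 9.46 TPM in skin and 322, 357, 247 and 272 TPM in spleen, with spleen libraries close together and no overlap (-3.29 ± 0.36 log2, adjusted p = 2.76e-07, and 0.0202 in the fit of 2 groups). Rasa3, which switches Rap1 and Ras off and belongs to no list, fell too, with 2.29 to 10.2 TPM in skin and 63.9 to 159 TPM in spleen (-3.68 ± 0.61 log2, adjusted p = 0.000134). It was picked after its values were seen.

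Some genes whose proteins destroy or silence cytokine messages rose. Of 25 tested members 9 rose and 0 fell, with a median of 0.39 log2 (0 in the fit of 2 groups, 10 without both replicates 4). Zfp36, also called tristetraprolin, binds AU-rich messages and was at 1523, 1359, 1313 and 502 TPM in skin and 17.5, 73.8, 115 and 239 TPM in spleen (3.78 ± 0.49 log2, adjusted p = 3.41e-06). Zc3h12a, the RNase Regnase-1, was at 10.2 to 55.5 TPM in skin and 2.24 to 6.3 TPM in spleen (2.87 ± 0.47 log2, adjusted p = 0.000131). The antiproliferative genes Btg2 and Tob2, which recruit the deadenylase, rose by 2.17 ± 0.41 and 2.08 ± 0.41 log2 (adjusted p = 0.000735 and 0.00115), and for both spleen replicate 4 was above skin replicate 4. In the fit of 2 groups these 4 genes had an adjusted p of 0.0562, 0.0581, 0.123 and 0.13.

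Some genes of cell cycle arrest, survival and death rose. Of 35 tested 10 rose and 0 fell, with a median of 0.26 log2 (5 in the fit of 2 groups, 12 without both replicates 4). Cdkn1a, the cyclin kinase inhibitor p21, was at 1049, 730.0, 827 and 325 TPM in skin and 21.4, 18.3, 10.8 and 9.5 TPM in spleen, with no spleen library near any skin library (5.47 ± 0.46 log2, adjusted p = 3.05e-09, and 0.00241 in the fit of 2 groups). Gadd45b, a stress kinase activator, was at 2094, 2035, 1546 and 513 TPM in skin and 36.9, 37, 20.9 and 52.8 TPM in spleen (5.23 ± 0.41 log2, adjusted p = 1.6e-09, and 0.00422 in the fit of 2 groups). Phlda1 rose by 4.16 ± 0.52 log2 (adjusted p = 2.48e-06). Bcl2a1d and Bcl2a1b, members of the A1 family of survival proteins, rose by 3.71 ± 0.45 and 2.89 ± 0.46 log2 (adjusted p = 1.28e-06 and 6.98e-05). The A1 genes are near-identical copies, and how the authors' counting divided reads between them is not given, so the 2 values are uncertain as separate genes. Bcl2a1b was lost in the fit of 2 groups (adjusted p = 0.0804).

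Among surface receptors, few members changed in any list. In the costimulatory and TNF receptor family 2 of 21 rose and 2 fell, with a median of 0 log2 (0 and 1 in the fit of 2 groups, 3 and 2 without both replicates 4). Icos, a costimulatory receptor induced after activation, was at 512, 700.1, 433 and 82 TPM in skin and 33.5, 72.9, 24.2 and 49.6 TPM in spleen (2.99 ± 0.53 log2, adjusted p = 0.000305). Tnfrsf9, which encodes 4-1BB, was at 121, 92.7, 89.2 and 7.7 TPM in skin and 1.81 to 6.26 TPM in spleen (3.82 ± 0.87 log2, adjusted p = 0.00448), and its lowest skin value, in replicate 4, was only just above the highest spleen value. Tnfrsf25, the death receptor DR3, was at 0.17 to 0.71 TPM in skin and 1.55 to 14.9 TPM in spleen (-2.72 ± 0.53 log2, adjusted p = 0.00098). Without skin replicate 4 alone, 4 members of this list rose.

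Of 28 cytokine receptor chains 2 rose and 1 fell, with a median of 0.09 log2 (0 and 0 in the fit of 2 groups, 6 and 1 without both replicates 4). The main counts were 7.1% and 3.6% of the list, beside 4.33% and 3.34% of all genes. The number that rose was 4 without skin replicate 4, 1 without skin replicates 2 or 3 or spleen replicate 1, and 0 without skin replicate 1 or spleen replicates 2 or 3. Il7r, the survival receptor of resting memory T cells, was the chain that fell, at 43, 68.2, 46.3 and 11.8 TPM in skin and 154, 139, 140.2 and 197 TPM in spleen, without overlap (-2.09 ± 0.42 log2, adjusted p = 0.00128). Il2ra and Tnfrsf1b rose by 1.86 ± 0.48 and 2.38 ± 0.69 log2 (adjusted p = 0.0129 and 0.0289). Il2ra was lost without skin replicate 1 or spleen replicates 2 or 3 (adjusted p = 0.0862, 0.0561 and 0.0670). Tnfrsf1b was lost without any 1 of skin replicates 1, 2 and 3 or spleen replicates 1, 2 and 3 (adjusted p between 0.0546 and 0.118). Il7r, Icos, Tnfrsf9 and Tnfrsf25 did not pass in the fit of 2 groups (adjusted p = 0.0935, 0.0814, 0.0724 and 0.0848).

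The count of inhibitory receptors depended on the libraries left out. Of 19 tested inhibitory receptors and ectoenzymes 1, Pdcd1, rose and 1, Cd38, fell, each 5.3% of the list beside 4.33% and 3.34% of all genes, with a median of 0.07 log2 (0 and 0 in the fit of 2 groups). Without skin replicate 4 alone 6 rose, without spleen replicate 4 alone 2 rose, and without both replicates 4 again 6 rose and 0 fell. Ctla4 was at 43.2, 41, 35.1 and 8.83 TPM in skin and 7.2, 11.5, 7.07 and 11.7 TPM in spleen (1.49 ± 0.58 log2, adjusted p = 0.132, and 0.0392 without both replicates 4). Havcr2, which encodes Tim-3, was at 88.7, 58.3, 72.1 and 6.87 TPM in skin and 4.67, 16.2, 7.25 and 22 TPM in spleen (1.84 ± 0.74 log2, adjusted p = 0.147, and 0.0132 without both replicates 4). In both genes skin replicates 1 to 3 were above every spleen library and skin replicate 4 was not. Cd38, which splits NAD, had -2.28 ± 0.57 log2 (adjusted p = 0.00953) and was lost without spleen replicate 4 (adjusted p = 0.0577), the library with the most B cell and myeloid RNA.

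Adhesion genes changed in both directions. Of 34 tested 5 rose and 3 fell, with a median of 0.37 log2 (2 and 1 in the fit of 2 groups, 9 and 1 without both replicates 4, 8 rose without skin replicate 4). Adgrg1, an adhesion receptor of cytotoxic lymphocytes also called GPR56, was at 63.7, 64.6, 46.3 and 16.6 TPM in skin and 0, 0, 0.16 and 2.15 TPM in spleen (4.97 ± 0.52 log2, adjusted p = 1.36e-07). Lmna, the nuclear lamin A/C that stiffens the nucleus, was at 2785, 2555, 2296 and 614 TPM in skin and 91.2, 184, 51.8 and 113 TPM in spleen (4.15 ± 0.60 log2, adjusted p = 2.44e-05). For both, no spleen library approached the skin range, and both were called in the fit of 2 groups (adjusted p = 0.0109 and 0.0168). Lmna is also expressed by keratinocytes and fibroblasts, and their part in its change was not tested.

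The 2 Icam ligands of the integrin LFA-1 moved oppositely. Icam2, the constitutive one, was at 6.43, 11.4, 7.08 and 0.39 TPM in skin and 59.8, 118, 109.8 and 127 TPM in spleen (-4.15 ± 0.43 log2, adjusted p = 1.26e-07, and 0.0245 in the fit of 2 groups). Icam1, the inducible one, was at 337, 246, 172 and 36.7 TPM in skin and 19.6, 44.3, 50.5 and 81.2 TPM in spleen (1.78 ± 0.53 log2, adjusted p = 0.0326). The Icam1 call was lost in the fit of 2 groups (adjusted p = 0.307) and on leaving out any 1 library except skin replicate 4 and spleen replicate 4 (adjusted p between 0.0543 and 0.156). Of 12 SLAM family genes 3 fell and 0 rose, with a median of -0.35 log2 (1 fell in the fit of 2 groups, and 1 fell and 2 rose without both replicates 4). Slamf6, a receptor kept by less differentiated CD8+ T cells and by B cells, was at 4.83, 3.33, 1.58 and 1.48 TPM in skin and 30.1, 55.9, 154 and 165 TPM in spleen (-4.52 ± 0.93 log2, adjusted p = 0.00158), in the same order over the spleen libraries as the B cell markers. Cd48 fell by 1.65 ± 0.45 log2 (adjusted p = 0.0182) and was lost in the fit of 2 groups (0.25), without skin replicate 4 (0.105), without spleen replicate 2 (0.0859) and without both replicates 4 (0.149).

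Chaperone genes of several families were among those that rose. Of 35 tested heat shock genes 14 rose and 0 fell, with a median of 0.60 log2 (3 in the fit of 2 groups, 14 without both replicates 4, 9 without skin replicate 1). The inducible Hsp70 genes Hspa1a and Hspa1b were at 1772, 829, 175 and 142 TPM and at 2888, 1606, 219 and 360.1 TPM in skin, and at 0.69, 0, 0 and 54.6 TPM and at 0, 0, 3.06 and 100.1 TPM in spleen. Skin replicate 1 was highest and spleen replicate 4 stood far above the other 3 spleen libraries for both. The 2 genes are neighbouring copies on chromosome 17. Their upstream 200 bases are shown as a comparison of the 2 copies and differ at 1 of 200 positions (99.5% identical). Capitals mark GAANNTTC, a pair of heat shock element units searched on both strands, which begins 104 bases before the start in each and was found in 5.41% of all promoters, 3.75% of called-higher and 4.92% of called-lower genes.
Hspa1a, chr17:34972157-34972356, minus strand: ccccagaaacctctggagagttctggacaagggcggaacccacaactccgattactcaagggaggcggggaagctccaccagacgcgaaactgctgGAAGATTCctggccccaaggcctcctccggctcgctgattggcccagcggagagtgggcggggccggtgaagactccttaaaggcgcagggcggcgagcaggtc
Hspa1b, chr17:34959239-34959438, minus strand: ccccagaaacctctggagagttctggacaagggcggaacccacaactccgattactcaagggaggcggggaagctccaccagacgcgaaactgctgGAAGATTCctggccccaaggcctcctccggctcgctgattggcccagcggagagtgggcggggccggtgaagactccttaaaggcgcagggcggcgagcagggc
The upstream bases are not part of the counted transcripts, so they cannot show how reads were divided between the 2 genes. Reads from copies with like transcripts can be split or lost in counting. The likeness of the 2 transcripts was not measured, so the 2 values are uncertain as separate measurements.

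Constitutive and helper chaperones were called as well. Hspa8, the constant Hsp70, was at 3401, 2311, 1004 and 505 TPM in skin and 142, 282, 405 and 1468 TPM in spleen, so that spleen replicate 4 lay above skin replicates 3 and 4 (1.84 ± 0.52 log2, adjusted p = 0.0227). Its call was lost without skin replicates 1 or 2 or spleen replicates 1 or 2 (adjusted p = 0.126, 0.0881, 0.121 and 0.0736). The co-chaperone Dnajb1 rose by 2.10 ± 0.46 log2 (adjusted p = 0.00326), with spleen replicate 4 at 119 TPM above skin replicate 4 at 103 TPM. Hspb1, a small heat shock protein abundant in epidermis, was at 97.3, 152, 16 and 321 TPM in skin and 0 to 2.69 TPM in spleen (5.49 ± 0.78 log2, adjusted p = 1.49e-05). Here skin replicate 4 was highest, as it was for the keratinocyte markers, and skin replicate 3 lowest, as for those markers too. The share of keratinocyte RNA in Hspb1 was not tested. Hspa8, Dnajb1, Hspa1a and Hspa1b did not pass in the fit of 2 groups (adjusted p = 0.373, 0.165, 0.0529 and 0.0594).

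Of 35 genes of the unfolded protein and integrated stress responses 6 rose and 0 fell, with a median of 0.46 log2 (2 in the fit of 2 groups, 11 without both replicates 4). Ppp1r15a, the GADD34 subunit that restarts translation by undoing eIF2-alpha phosphorylation, was at 558, 422, 434 and 124 TPM in skin and 17, 14.1, 29.9 and 62.3 TPM in spleen (3.64 ± 0.43 log2, adjusted p = 8.25e-07). Cebpb, a zipper factor shared by stress and inflammatory responses, rose by 3.40 ± 0.59 log2 (adjusted p = 0.000228). Ern1, the sensor IRE1 of the endoplasmic reticulum, was at 7.74 to 22 TPM in skin and 0.72 to 1.96 TPM in spleen (2.71 ± 0.60 log2, adjusted p = 0.00364). Hspa5, the reticulum chaperone BiP, rose by 2.07 ± 0.51 log2 (adjusted p = 0.00907), with 370.4 to 1803 TPM in skin and 126 to 570.2 TPM in spleen, with overlap. Ppp1r15a and Ern1 were called in the fit of 2 groups (adjusted p = 0.0282 and 0.0252), and Cebpb and Hspa5 were not (0.0711 and 0.181).

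In metal and oxidant defence 5 of 30 tested genes rose and 2 fell, with a median of 0.10 log2 (1 and 0 in the fit of 2 groups, 7 and 1 without both replicates 4, and 2 rose without any 1 of skin replicates 1 to 3 or spleen replicate 1, and 3 without spleen replicate 2). Mt1 and Mt2, the metallothioneins that bind zinc and copper and respond to glucocorticoids, rose by 3.22 ± 0.71 and 3.47 ± 0.75 log2 (adjusted p = 0.00331 and 0.00276). Mt1 was at 339, 339, 741 and 309 TPM in skin and 69.9, 39.3, 18.6 and 62.5 TPM in spleen, so skin replicate 4 was close to replicates 1 and 2, while its T cell identity sum was 0.187 of the median of the other skin libraries. Txnip, which blocks glucose uptake and thioredoxin, fell by 1.50 ± 0.34 log2 (adjusted p = 0.00429), with 77.8 to 269.7 TPM in skin and 404 to 755 TPM in spleen. Hmox1, which degrades heme, fell by 3.58 ± 0.96 log2 (adjusted p = 0.0166), with 1.82, 2.29, 42.7 and 1.83 TPM in skin and 40.3, 83.9, 21.9 and 289 TPM in spleen. Skin replicate 3, with the most macrophage RNA, lay inside the spleen range. The Hmox1 call was lost without any 1 of skin replicates 1, 2 or 4 or spleen replicate 4 (adjusted p = 0.0672, 0.0554, 0.0588 and 0.0761) and without both replicates 4 (0.173). Mt1 was called in the fit of 2 groups (adjusted p = 0.0202), and Mt2, Txnip and Hmox1 were not (0.0938, 0.166 and 0.172).

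Some metabolic genes rose. In glycolysis and hypoxia 8 of 34 tested genes rose and 0 fell, with a median of 0.73 log2 (1 in the fit of 2 groups, 14 without both replicates 4). The number was 4 without skin replicate 1 or without spleen replicate 3, and 13 without skin replicate 4. Hilpda, a hypoxia-inducible lipid droplet protein, was at 369, 351, 353 and 82.3 TPM in skin and 24.8, 8.07, 31.5 and 21.1 TPM in spleen (3.62 ± 0.50 log2, adjusted p = 9.35e-06, and 0.0274 in the fit of 2 groups). Of 26 nutrient transporters 3 rose and 1 fell, with a median of 0.35 log2 (0 and 0 in the fit of 2 groups, 7 and 1 without both replicates 4). The main counts were 11.5% and 3.8% of that list, beside 4.33% and 3.34% of all genes. Slc3a2, the heavy chain CD98 of amino acid transporters, was at 444, 363, 352 and 109.8 TPM in skin and 95.5, 98.9, 107 and 140.0 TPM in spleen (1.36 ± 0.33 log2, adjusted p = 0.00742), with skin replicate 4 inside the spleen range. The member that fell was Slc40a1, the iron exporter of red pulp macrophages, at 1.23 to 3.99 TPM in skin and 18.1, 56.2, 31.4 and 407 TPM in spleen (-4.33 ± 0.92 log2, adjusted p = 0.00244). Its highest value was in spleen replicate 4, where macrophage markers reached 5478 TPM. Slc40a1 was not called in the fit of 2 groups (adjusted p = 0.0582). Odc1, the first enzyme of polyamine synthesis, belongs to no list and was picked after its values were seen. It was at 67.8 to 597 TPM in skin and 15.7 to 47 TPM in spleen (3.52 ± 0.49 log2, adjusted p = 1.11e-05).

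Some lipid genes were also higher in skin. In lipid handling 5 of 32 tested genes rose and 0 fell, with a median of 0.19 log2 (1 in the fit of 2 groups, 7 without both replicates 4). Elovl5, which lengthens polyunsaturated fatty acids, was at 191, 192, 120.3 and 235 TPM in skin and 12.9, 46.8, 49.4 and 75.5 TPM in spleen (2.17 ± 0.41 log2, adjusted p = 0.000735), with skin replicate 4 highest. The fatty acid transporter Slc27a1 rose by 2.40 ± 0.42 log2 (adjusted p = 0.000267), with skin replicate 4 lowest at 8.2 TPM, and neither was called in the fit of 2 groups (adjusted p = 0.0938 and 0.083). In cholesterol synthesis and export 5 of 33 rose and 0 fell, with a median of 0.90 log2 (0 in the fit of 2 groups, 6 without both replicates 4, 3 without skin replicate 1 or spleen replicates 2 or 3). Among them were the synthesis genes Cyp51 (2.12 ± 0.43 log2, adjusted p = 0.00145) and Sqle, the sterol sensor Insig1 (2.38 ± 0.54, adjusted p = 0.00442) and the desaturase Scd3. Scd3 was at 17, 0.48, 0 and 133 TPM in skin and 0.01 to 0.81 TPM in spleen (2.65 ± 0.80 log2, adjusted p = 0.0362), and without skin replicate 4 its adjusted p was 0.200. It was also lost without skin replicate 1 (0.139) or spleen replicates 2, 3 or 4 (0.0732, 0.0836 and 0.0755), and sebaceous gland cells are a known source of it.

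The level in skin replicate 4, relative to the other skin libraries, varied among the lists of higher genes. Its T cell identity sum was 0.187 of the median of skin replicates 1 to 3, and its keratinocyte sum 3.62 of that median. For the called-higher members of the MAP kinase feedback list the median ratio was 0.214, for NF-kappaB 0.226, for chemokines 0.232, for the Egr and Nr4a list 0.236, for chemokine and lipid mediator receptors 0.259, for integrins and adhesion 0.261, for survival genes 0.265, for AP-1 factors 0.279, for mRNA decay genes 0.30, for heat shock genes 0.304 and for the unfolded protein response 0.327. For cytokines it was 0.363, for glycolysis and hypoxia 0.418, for cholesterol genes 0.623, for metal and oxidant defence 0.663 and for lipid handling 1.24. All of these lists, each with at least 5 called-higher members, lay between the T cell and keratinocyte sums. Of the lists with fewer such members, some lay below the T cell sum, such as costimulatory receptors (0.122) and inhibitory receptors (0.0748, 1 gene). Others lay above it, such as nuclear receptors and clock genes (0.315). The members were called with skin replicate 4 in the fit, whereas the 2 sums were not chosen by a call, so their levels are not directly comparable. The difference between lists was not tested. Over all 855 higher genes, skin replicate 4 was the lowest skin library for 402 (47.0%) and the highest for 283 (33.1%).

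**Figure D3:**
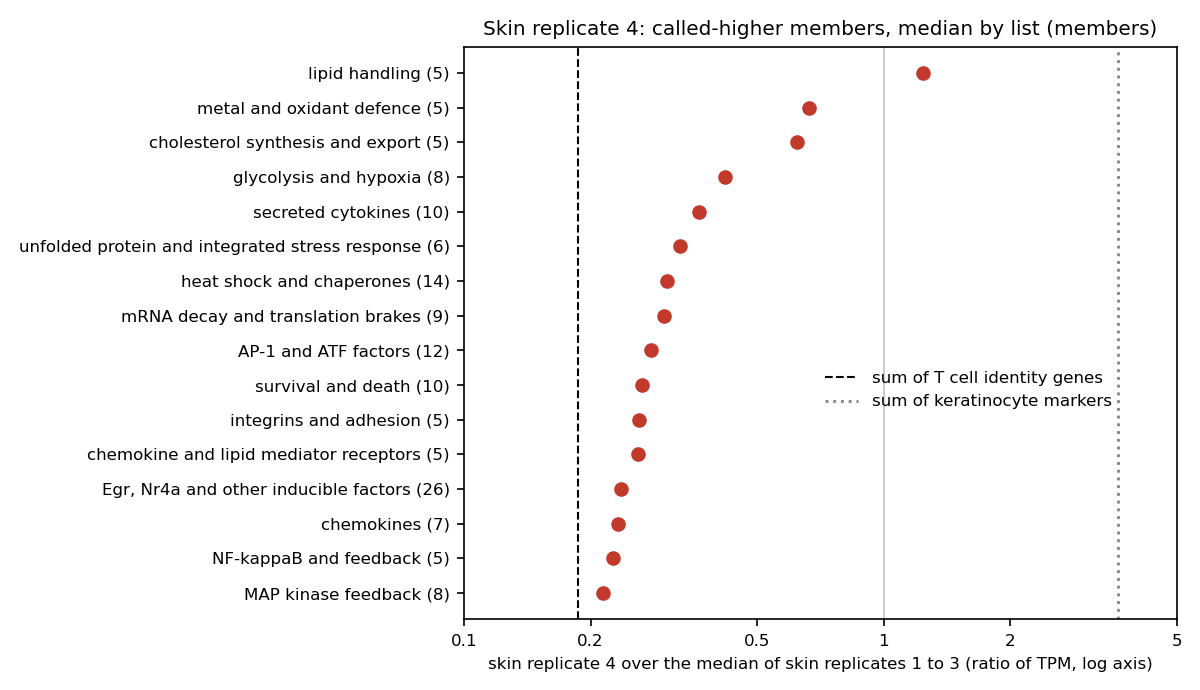
Ratio of the TPM in skin replicate 4 to the median of skin replicates 1 to 3 (log axis), as the median over the called-higher members of each list with at least 5 such members, whose number is in parentheses. The dashed line marks the sum of T cell identity genes (0.187) and the dotted line the sum of keratinocyte markers (3.62). Of the lists drawn, MAP kinase feedback (0.214) lies nearest the T cell line and lipid handling (1.24) nearest the keratinocyte line.

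The 12 largest increases were picked among well expressed called genes with no overlap between the groups. Residency genes, markers of other cell types, predicted genes and receptor or immunoglobulin segments were left out first. Keratinocyte markers, thus left out, rose by up to 8.62 log2. Of the 12 genes picked, 3 belonged to no list. Fam25c, Defb6 and Calm4 were listed at 0 in all 4 spleen libraries and at 183, 113, 19.1 and 777, at 128, 39.1, 76.8 and 486 and at 159, 106, 11.6 and 644 TPM in skin replicates 1 to 4. Defb6 encodes a beta-defensin and Calm4 a calmodulin-like protein of differentiating epidermis. In each of them skin replicate 4 was highest, as for the keratinocyte sum. All 17 tested keratinocyte markers and all 6 tested fibroblast markers were called higher in skin (10 and 2 in the fit of 2 groups, 15 and 6 without both replicates 4). The part of these cells in any T cell gene was not tested.

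Genes lower in skin included 10 of 11 tested B cell markers, with a median of -5.22 log2. Among the functional lists the largest share that fell was in the Gimap GTPases, which support survival of resting lymphocytes and are switched off on activation. Of 8 tested members 7 fell and 0 rose, with a median of -2.87 log2 (7 in the fit of 2 groups and 7 without both replicates 4). The 8 genes lie next to each other on chromosome 6 of the mm10 build, from 48647234 at the start of Gimap8 to 48770851 at the end of Gimap3. Gimap7 was at 1.79, 0.45, 0.3 and 1.23 TPM in skin and 147, 97.4, 143 and 135 TPM in spleen (-6.13 ± 0.78 log2, adjusted p = 2.66e-06). Gimap4, the most abundant member in spleen, was at 43, 53.9, 56.5 and 10.6 TPM in skin and 388, 552, 624 and 551 TPM in spleen (-3.87 ± 0.40 log2, adjusted p = 1.26e-07). Gimap6, Gimap9, Gimap1 and Gimap3 had changes of -3.03, -2.99, -2.76 and -2.72 log2, and Gimap8 the smallest, -1.60.

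Gimap5, whose loss is known to deplete T cells in rodents, was the member that missed the threshold (adjusted p = 0.0775). It was at 32.2, 35.4, 41.4 and 7.65 TPM in skin and 158, 135, 215 and 96.6 TPM in spleen, so its groups did not overlap either. No overlap with lower values in skin was seen for 5.69% of all genes tested. Gimap7 had the largest decrease of the family and measured at most 1.79 TPM in skin, whereas Gimap3 and Gimap1 kept between 15.9 and 84.7 TPM there. Skin replicate 4 had the lowest value of the skin libraries for 5 of the 7 called members, with a median ratio of 0.246 to the median of the others, beside 0.187 for the T cell identity sum. It had the lowest value for 52.0% of all 660 lower genes. In the other tissues the summed Gimap level was 1243 to 2557 TPM in lung and 502 to 2219 TPM in liver. It was 80.3 to 311 TPM in skin and 1404 to 2522 TPM in spleen. The T cell identity sum of the liver libraries ranged from 3483 to 28805 TPM.

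**Figure D4:**
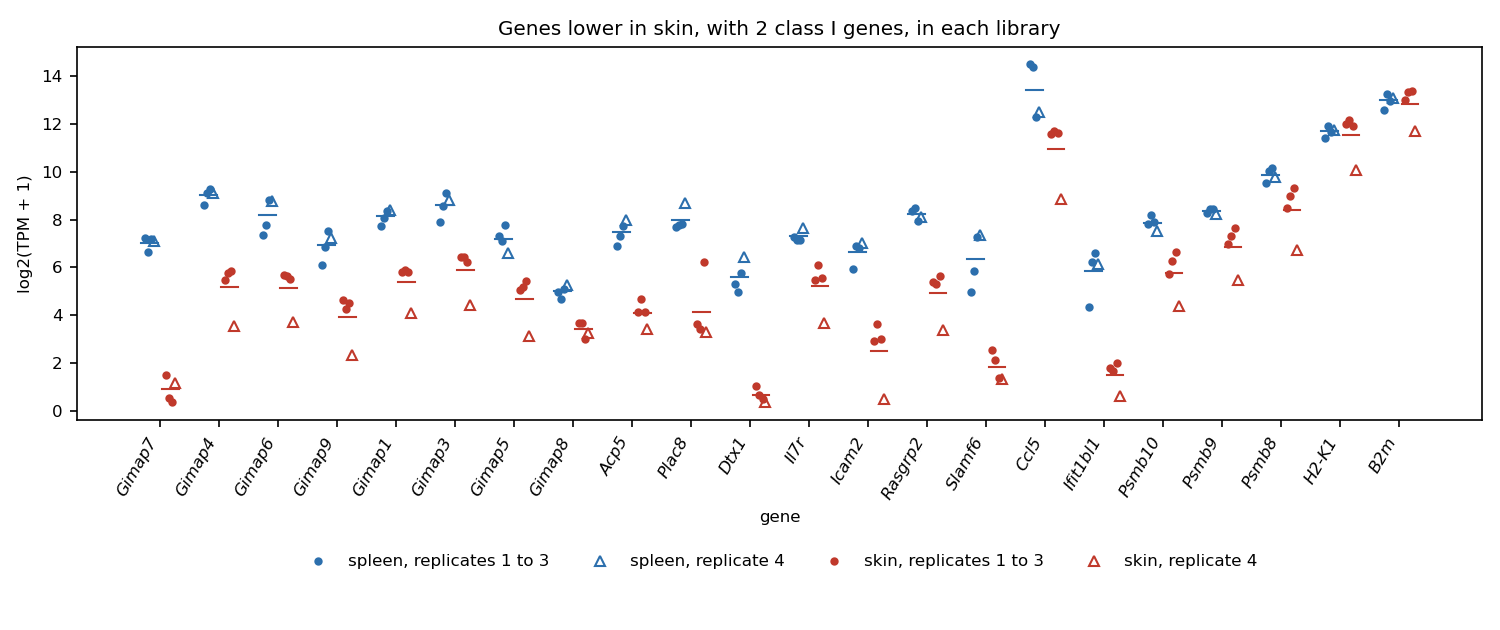
Level of 19 genes called lower in skin, of Gimap5, which missed the threshold, and of the class I genes H2-K1 and B2m, in each library as log2(TPM + 1), with spleen in blue, skin in red, replicate 4 as an open triangle and the mean as a line. Gimap7 (0.3 to 1.79 TPM) and Dtx1 (0.27 to 1.06 TPM) lie near 0 in skin, and H2-K1 and B2m overlap between the groups.

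Other genes of resting and lymphoid memory cells fell in part. Of 44 tested 13 fell and 3 rose, with a median of -0.88 log2 (3 and 0 in the fit of 2 groups, 5 and 5 without both replicates 4, 7 fell without spleen replicate 3). Acp5, a tartrate-resistant phosphatase, was at 16.5, 24.2, 16.3 and 9.52 TPM in skin and 118, 158, 212 and 252 TPM in spleen, a wide gap in every library (-3.41 ± 0.30 log2, adjusted p = 8.39e-09, and 0.00577 in the fit of 2 groups). Plac8, a gene of circulating effector and interferon-exposed lymphocytes, was at 11.3, 9.76, 74.2 and 8.88 TPM in skin and 206, 218, 222 and 413 TPM in spleen (-3.85 ± 0.51 log2, adjusted p = 5.8e-06). Skin replicate 3 stood above the other skin libraries for Plac8, and it also held the most macrophage RNA. Over the spleen libraries Acp5 and Plac8 were in the same order as the B cell markers, whose part in the 2 genes was not tested. Vps37b, an endosomal sorting gene, was among the 3 that rose, at 1183, 1105, 835 and 149 TPM in skin and 26.1, 52.1, 91.6 and 81.1 TPM in spleen (3.47 ± 0.69 log2, adjusted p = 0.00119, and 0.0594 in the fit of 2 groups).

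Among 40 genes of T cell receptor signalling and its brakes, 3 fell and 1, Rcan1, rose, with a median of -0.27 log2 (1 and 0 in the fit of 2 groups, 1 and 2 without both replicates 4). In the main fit 7.5% of this list fell and 2.5% rose, beside 3.34% and 4.33% of all genes. Dtx1, a ubiquitin ligase regulator of Notch signalling and T cell anergy, was at 1.06, 0.58, 0.41 and 0.27 TPM in skin and 38.4, 29.9, 53 and 84.3 TPM in spleen (-4.97 ± 0.46 log2, adjusted p = 1.38e-08). B cells express Dtx1 too, and the B cell sum was highest in spleen replicate 4, as Dtx1 was. The part of B cells in the change of Dtx1 was not tested. Dgkz, a kinase that removes diacylglycerol, fell by 1.36 ± 0.35 log2 (adjusted p = 0.0132), and its adjusted p was 0.0643 without skin replicate 4 and 0.14 in the fit of 2 groups. In the list of circulating effector memory cells 4 of 46 rose and 3 fell, with a median of -0.18 log2 (0 and 0 in the fit of 2 groups, 4 and 0 without both replicates 4, 2 rose without spleen replicate 3 and 1 fell without skin replicate 4 or spleen replicate 1). In the main fit 8.7% of the list rose and 6.5% fell, beside 4.33% and 3.34% of all genes. Ly6c2, a surface protein of circulating memory T cells and monocytes, was at 118, 36.2, 76.6 and 2.67 TPM in skin and 1580.4, 433, 529 and 805 TPM in spleen (-4.46 ± 1.22 log2, adjusted p = 0.0199). It was lost without skin replicate 4 (adjusted p = 0.109), without spleen replicate 1 (0.0622) and without both replicates 4 (0.15). Cd44, the hyaluronan receptor of memory cells, rose by 2.04 ± 0.45 log2 (adjusted p = 0.00343), with 69.1 to 405 TPM in skin and 27 to 103 TPM in spleen. Anxa2, a calcium-dependent membrane protein, rose by 2.04 ± 0.51 log2 (adjusted p = 0.011, and 0.0700 without spleen replicate 3).

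Some interferon-stimulated genes were lower in skin, and the number depended on the libraries and groups fitted. Of 60 tested 16 fell and 0 rose, with a median of -1.06 log2 (1 in the fit of 2 groups, 5 without both replicates 4, 9 without skin replicate 4). Skin replicate 4 was the lowest skin library for all 16, at a median of 0.213 of the other skin libraries, beside 0.187 for the T cell identity sum. Over all 660 lower genes it was the lowest skin library for 343 (52.0%). Ifit1bl1 was at 2.42, 2.16, 2.98 and 0.51 TPM in skin and 19.3, 73.8, 94.9 and 70.1 TPM in spleen (-4.32 ± 0.50 log2, adjusted p = 6.91e-07, and 0.0141 in the fit of 2 groups). Ifi203, a gene of the DNA-sensing Ifi200 family, was at 51.1, 82.1, 107 and 12.6 TPM in skin and 214, 477, 262 and 214 TPM in spleen (-2.46 ± 0.47 log2, adjusted p = 0.000735). Ifitm1, a membrane protein that limits virus entry, was at 634, 66.8, 651 and 16.3 TPM in skin and 5957, 1124, 645 and 1639 TPM in spleen (-3.46 ± 0.94 log2, adjusted p = 0.0181), so that skin replicates 1 and 3 reached the level of spleen replicate 3. It was lost without skin replicates 2 or 4 or spleen replicate 1 (adjusted p = 0.0675, 0.112 and 0.0841). Ifit3 fell by 2.19 ± 0.50 log2 (adjusted p = 0.00493, and 0.0673 without both replicates 4), and skin replicate 3, at 55.4 TPM, overlapped spleen. Ifi203, Ifitm1 and Ifit3 were not called in the fit of 2 groups (adjusted p from 0.12 to 0.252).

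The upstream 200 bases of called-lower genes were searched on both strands for TTTC, any 2 bases and TTTC, the core of the interferon-stimulated response element. It was found in 25 of 427 called-lower genes with a sequence (5.85%), in 13 of 586 called-higher genes (2.22%), in 2.13% of tested genes and in 2.33% of all promoters. The list of interferon genes was not used in the search, but several of the 25 belong to it, among them Ifit3, Tgtp1, Irgm1, Oas3 and Trim30a. Ifit1bl1 and Ifit3 are shown because they carry the element once and in 2 copies, in capitals.
Ifit1bl1, chr19:34601969-34602168, minus strand: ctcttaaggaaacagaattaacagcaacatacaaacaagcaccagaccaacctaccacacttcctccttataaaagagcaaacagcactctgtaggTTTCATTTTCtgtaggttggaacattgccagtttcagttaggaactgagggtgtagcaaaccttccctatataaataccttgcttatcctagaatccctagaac
Ifit3, chr19:34583329-34583528, plus strand: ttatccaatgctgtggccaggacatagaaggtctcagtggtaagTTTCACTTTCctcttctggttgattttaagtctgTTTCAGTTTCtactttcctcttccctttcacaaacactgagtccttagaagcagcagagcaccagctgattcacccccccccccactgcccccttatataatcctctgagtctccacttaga

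Of 23 tested genes of class I antigen processing 5 fell and 0 rose, with a median of -0.46 log2 (0 in the fit of 2 groups, and 4 fell and 1 rose without both replicates 4), and the 5 were the immunoproteasome subunits Psmb8, Psmb9 and Psmb10 and the activators Psme1 and Psme2. Psmb10 was at 50.9, 75.7, 98.8 and 20.1 TPM in skin and 223, 295, 237 and 185 TPM in spleen (-2.11 ± 0.36 log2, adjusted p = 0.000168). Psme1 and Psme2 fell by 1.34 ± 0.25 and 0.98 ± 0.24 log2 (adjusted p = 0.00062 and 0.00736), and Psmb9 by 1.50 ± 0.32 log2 (adjusted p = 0.00244). Psmb8 fell by 1.50 ± 0.38 log2 (adjusted p = 0.0118), and without skin replicate 4 its adjusted p was 0.0592. All 5 were lowest in skin replicate 4, as were 52.0% of all lower genes among the skin libraries. In each of the 5 genes skin replicates 1 to 3 also lay below all 4 spleen libraries. In the fit of 2 groups the adjusted p of Psmb8, Psmb9, Psmb10, Psme1 and Psme2 ran from 0.0788 to 0.269.

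Presenting genes were not among the 5. The class I heavy chain gene H2-K1 was at 4046, 4616, 3881 and 1088 TPM in skin and 2742, 3822, 3292 and 3471 TPM in spleen (-0.15 ± 0.37 log2, adjusted p = 0.895). Its light chain gene B2m was at 8142, 10450.3, 10658 and 3335 TPM in skin and 6213, 9892, 7977 and 8804 TPM in spleen (-0.13 ± 0.29 log2, adjusted p = 0.886). Without skin replicate 4 both had positive changes, 0.33 and 0.26 log2, that did not pass. Whether the change of the proteasome genes differs from that of the presenting genes was not tested.

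Few granule genes passed. Of 33 tested granule and protease inhibitor genes 1, Furin, rose and 1, Slpi, fell, with a median of -0.02 log2 (0 and 1 in the fit of 2 groups, 6 and 1 without both replicates 4). Each was 3.0% of the list, beside 4.33% higher and 3.34% lower over all genes. Without skin replicate 4 alone 6 rose, and without any 1 of skin replicates 1 to 3 or spleen replicates 2 or 3 none rose. Slpi, a secreted protease inhibitor of neutrophils and mucosa, was at 0.52, 2.61, 4.84 and 1.13 TPM in skin and 204, 106, 56.8 and 685 TPM in spleen (-5.90 ± 1.35 log2, adjusted p = 0.00489). It was highest in spleen replicate 4, which held 3723 TPM of neutrophil markers, and next highest in spleen replicate 1, where those markers summed to 96.9 TPM. The part of neutrophil RNA in the change of Slpi was not tested. Of 19 genes that damp cytokine signals 2, Socs1 and Cish, rose and 0 fell, with a median of -0.01 log2 (0 in the fit of 2 groups, 3 without both replicates 4). The number was 0 without skin replicates 1 or 2, and 1 without skin replicate 3 or spleen replicates 1 or 4. Cish, an inhibitor of Stat5 signalling, rose by 2.15 ± 0.56 log2 (adjusted p = 0.0145) and was lost without skin replicates 1 or 2 or spleen replicate 3 (adjusted p = 0.0682, 0.0650 and 0.0607). Rgs16, which shortens chemokine receptor signals, rose with Rgs4 in a list of 11 tested Rgs genes, in which 1, Rgs19, fell (4.24 ± 0.74 log2 for Rgs16, adjusted p = 0.00024). In the fit of 2 groups 1, Rgs16, rose and 0 fell, and without both replicates 4 2 rose and 0 fell. The number that rose was 1 without skin replicates 1 or 2. In the cAMP pathway 1 of 23 tested genes, Pde4b, rose and 0 fell (0 rose in the fit of 2 groups, 6 without both replicates 4), a share of 4.3% beside the 4.33% over all genes.

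The 12 largest decreases were picked in the same way as the increases. The B cell markers, with changes down to -9.82 log2, were thus left out. Of the 12 genes picked, 4 belonged to no list, and these, Fcmr, Mzb1, Bank1 and Tnfrsf13c, are known from B cells. They were at 73.9, 64.9, 143 and 397, at 43.5, 62.6, 76.7 and 242, at 9.06, 27.7, 35 and 132 and at 14.3, 38.2, 22.1 and 87.9 TPM in spleen replicates 1 to 4, highest in replicate 4 as the B cell sum was. In skin none exceeded 1.86 TPM. Of the 11 tested B cell markers 10 were called lower in skin (7 in the fit of 2 groups and 8 without both replicates 4), and of 10 class II genes 6 (3 and 3). Among chemokine and lipid mediator receptors 5 of 46 rose and 5 fell, with a median of 0.27 log2 (0 and 2 in the fit of 2 groups, 8 and 3 without both replicates 4). The 5 that fell were Ccr3, Cnr2, Cxcr5, Gpr18 and S1pr4, of which Cxcr5 guides B cells into follicles. In them the level in spleen replicate 4 was 5.9 of the median of the other spleen libraries, as a median over the 5 genes. The 5 that rose became 8 without skin replicate 4, 2 without spleen replicate 1 and 3 without any 1 of skin replicates 1 to 3 or spleen replicates 2 or 3, and the 5 that fell became 3 without skin replicates 1 or 2 or spleen replicate 4. The part of B cells in these decreases was not tested.

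The same lists can be set beside the other tissues of the series, as summed TPM over 4 libraries per group and without a test. AP-1 and ATF genes summed to 3530 to 13592 TPM in skin and 515 to 1236 TPM in spleen. They summed to 3153 to 6501 TPM in liver, where cells were also freed with collagenase IV. In lung, which was digested with Liberase, the sum was 1130 to 1533 TPM. In memory lymph node cells, which were dissociated mechanically, it was 683 to 1467 TPM. Tumor, day 12 lymph node and naive cells had 582 to 1073, 773 to 841 and 565 to 701 TPM. T cell identity genes summed to 3483 to 28805 TPM in liver (median 8317 TPM) and had a median of 28703 TPM in skin. The part of other cells in the liver sums was not tested. NF-kappaB genes summed to 1657 to 6951 TPM in skin, 2117 to 4831 in liver, 1139 to 1859 in lung and 989 to 2000.5 in spleen. Genes of the Egr and Nr4a list summed to 2566 to 12094 TPM in skin, 2684 to 4754 in spleen and 4740 to 10200 in liver. They summed to 3483 to 6165 TPM in lung and 3844 to 7165 in memory lymph node. The median of that list was higher in memory lymph node, 6504 TPM, than in liver, 6046 TPM. Dissociation and tissue cannot be told apart for any of these groups.

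**Figure D5:**
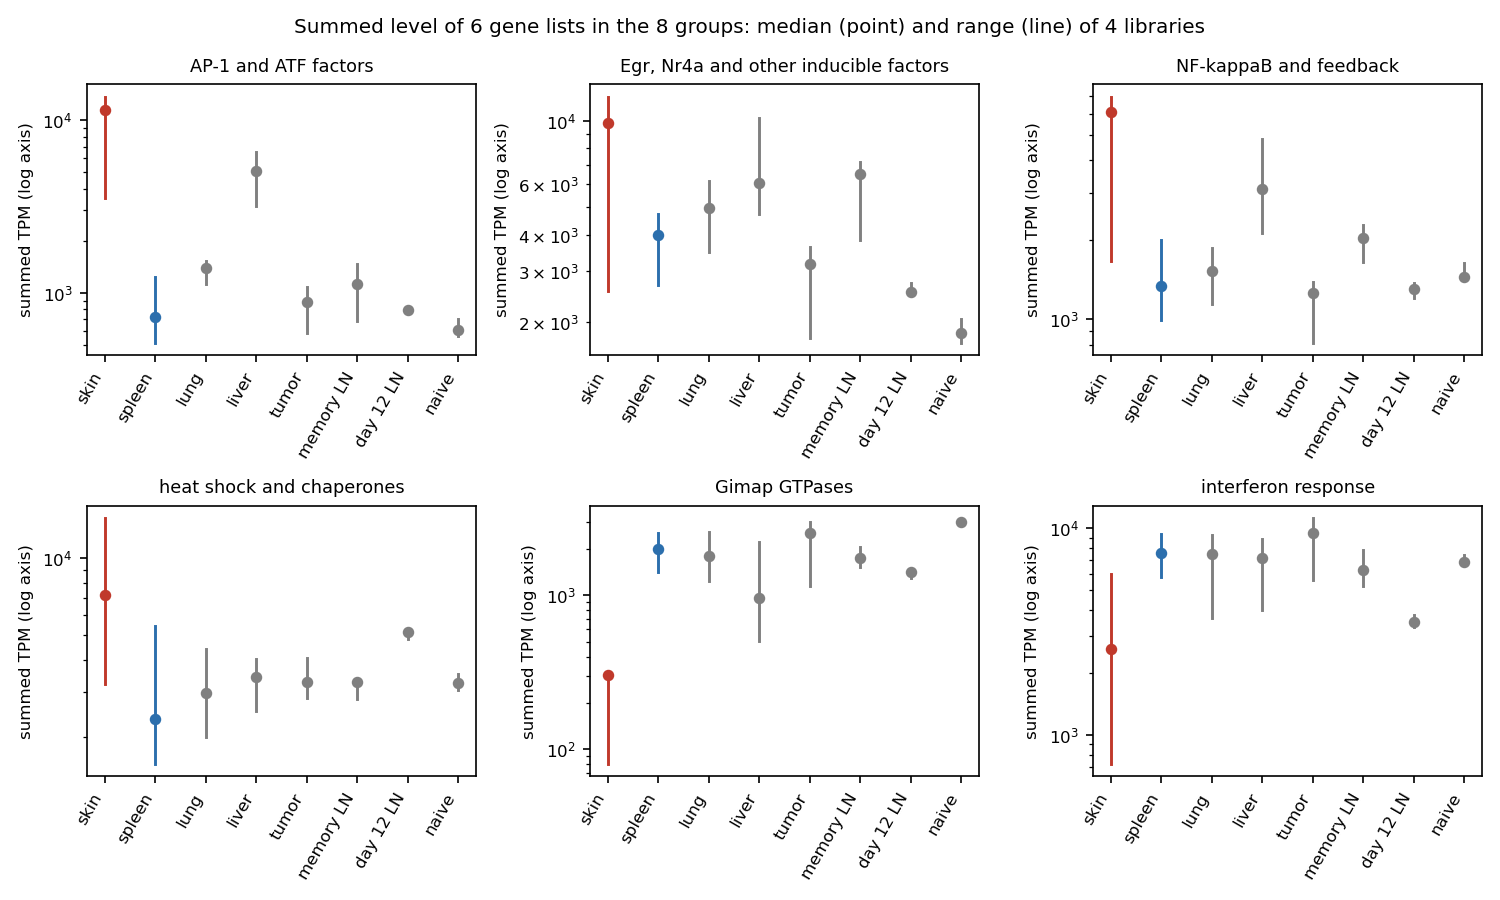
Summed TPM (log axis) of 6 lists in the 8 groups of the series, with the median of 4 libraries as a point and their range as a line, skin in red, spleen in blue and other groups in grey. The AP-1 and NF-kappaB sums are highest in skin and next highest in liver by their medians, and the Gimap and interferon sums have their lowest median in skin. The median of the Egr and Nr4a list is highest in skin and next highest in memory lymph node.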

How the data were processed

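RNA sequencing of Pmel CD8+ T cells was deposited as 1 table of 46517 genes in 32 libraries (8 groups of 4). The authors deposited natural log values of TPM + 1, as the values show: their exponentials less 1 are whole multiples of 0.01 and sum to between 999999 and 1000001 per library. Reads were aligned with Bowtie to mm10, per the submitters' processing notes, and neither the counting tool nor the annotation is given in the sources used here. Values were turned back into TPM, and log2(TPM + 1) was fitted with limma 3.58.1 (R 4.3.3, variance trend) over all 32 libraries, so that the groups share 1 estimate of spread (24 residual degrees of freedom). Skin was compared with spleen in 19738 genes with at least 1 TPM in at least 4 libraries, with Benjamini-Hochberg adjustment over all of them and a threshold of 0.05. Errors after ± are standard errors of the log2 change, n = 4 libraries per group. TPM keeps no depth, so no counting error could be given. An exact permutation test of 4 against 4 libraries cannot go below p = 0.0286, and none was used.

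The members and lists were chosen with earlier results of these data known. Named genes are key genes of each list, up to 6 called members with the largest change per list and the 12 largest increases and decreases. For these increases and decreases, only well expressed called genes without overlap were used. Residency genes, markers of other cell types, predicted genes and receptor or immunoglobulin segments were left out of them. Genes outside these rules are said to be picked after their values were seen. Alternatives were other filters, pseudocounts, scalings, weights, libraries and a replicate block. Refitting without predicted, mitochondrial and marker genes, and the block in the 2 groups alone, were added after seeing the data. Sequences came from RefSeq (GRCm38.p6), with 1 promoter per gene symbol. The fit was tested on simulated data. Some called list members are not reported here. Figures were drawn with Matplotlib 3.10.9 in Python 3.11.15.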

Additional observations from a re-analysis of the deposited data

Results flagged for a closer look

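For 43 of 262 groups of 4 libraries (16.4%), the highest or lowest library lay farther from the other 3 than Dixon's test allows at the 95% level, where chance flags about 1 in 20 groups. In 34 of the 43 the library was skin replicate 4, whose T cell identity sum was 0.187 of the median of the other skin libraries, and in 5 it was spleen replicate 4. The part of that difference in the values below was not tested.

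Skin replicate 4 was the lowest skin library in all but 1 of its cases. Transcription factors and early genes with such a value there were Crem 188 TPM, Ier5l 11 TPM and Per1 8.44 TPM. Cytokines and chemokines with such a value there were Tnfsf11 22.7 TPM, Ccl1 14.1 TPM, Ccl5 467 TPM, Ltb 67.1 TPM and Vegfa 5.99 TPM. Feedback genes with such a value there were Nfkbiz 46 TPM, Nfkbia 677 TPM, Dusp5 186 TPM, Zfp36 502 TPM, Zc3h12a 10.2 TPM, Rasgrp2 9.46 TPM and Rasa3 2.29 TPM. Surface receptors with such a value there were Tnfrsf9 7.7 TPM, Ctla4 8.83 TPM and Havcr2 6.87 TPM. Metabolic genes with such a value there were Slc3a2 109.8 TPM, Insig1 14.1 TPM and Hilpda 82.3 TPM. Of the Gimap family, the values there were Gimap3 20.6 TPM, Gimap4 10.6 TPM, Gimap5 7.65 TPM, Gimap6 12 TPM, Gimap9 4.01 TPM and Gimap1 15.9 TPM. Other genes with such a value there were H2-K1 1088 TPM, Lmna 614 TPM, Anxa2 372 TPM, Litaf 110.2 TPM, Vps37b 149 TPM and Rgcc 611 TPM. Mzb1, the exception, was highest there, at 1.15 TPM, and at 0 in the other skin libraries.

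Spleen replicate 4 was the highest spleen library for Tnfsf11 (3.69 TPM), Dusp4 (0.59 TPM), Adgrg1 (2.15 TPM), Hspa1a (54.6 TPM) and Plac8 (413 TPM). Skin replicate 3 was highest for Hmox1 (42.7 TPM), Mt1 (741 TPM) and Plac8 (74.2 TPM), and spleen replicate 3 for Ccl7 (1.11 TPM).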

How the results depend on the processing

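Counts of 855 higher and 660 lower genes stayed within 1.5 times, at 651 to 1099 higher and 455 to 759 lower, with no filter, a pseudocount of 0.1, weights per group, quantile normalization, the replicate block and rescaling. With a filter of 5 TPM 497 were higher and 601 lower. With only skin and spleen in the fit 154 were higher and 117 lower. Without 6 libraries whose T cell identity sum was low, which include both replicates 4, 2183 were higher and 1068 lower, and without both replicates 4 alone 1069 and 368. Leaving out 1 library gave 585 to 930 higher and 409 to 720 lower, the lowest of the latter without skin replicate 4. The cause of these moves was not tested. Of the 126 called genes named here, 62 kept their call with only skin and spleen in the fit, and 0 changed direction in any setting. The change of H2-K1, -0.15 log2, was 0.01 after quantile normalization, 0.36 without the low identity libraries, 0.36 without both replicates 4 and 0.04 after rescaling, and -0.36 to 0.33 on leaving out 1 library, the highest without skin replicate 4. The change of B2m, -0.13 log2, was 0.04, 0.30, 0.30 and 0.06 in the same settings and -0.30 to 0.26 on leaving out 1 library. Same-numbered skin and spleen libraries correlated in their deviations at 0.245, 0.162, 0.0829 and -0.108, and not every sample correlated best with its own number. These correlations cannot decide whether the numbers pair the samples, because the libraries also differ in RNA of other cells. With the replicate block 864 genes were higher and 759 lower, and with the block in the 2 groups alone 2 and 11. TPM keeps no depth, so low values, such as those of spleen genes at 0, have no known counting error.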

Other observations

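Of the 1515 genes called between skin and spleen, 1223 were in none of the lists. A few of them, picked here after their values were seen, describe further functions. Rgcc, a cell cycle regulator, was at 3128, 3001, 2545 and 611 TPM in skin and 335, 291, 518 and 163 TPM in spleen, with no overlap (2.70 ± 0.53 log2, adjusted p = 0.00108). Gem, a small GTPase that inhibits calcium channels, rose, with 67 to 635 TPM in skin and 6.12 to 31.6 TPM in spleen (4.24 ± 0.61 log2, adjusted p = 1.99e-05). Litaf, an endosomal membrane protein, rose, with 110.2 to 824 TPM in skin and 18.8 to 69.8 TPM in spleen (3.63 ± 0.47 log2, adjusted p = 4.35e-06). For these 3 genes skin replicate 4 was the lowest skin library. In the fit of 2 groups Gem was called (adjusted p = 0.0451), and Rgcc and Litaf were not (0.0859 and 0.0544).

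Pycard, the inflammasome adaptor ASC, was at 36.3, 48.1, 44.7 and 50.8 TPM in skin and 188, 302, 132 and 128 TPM in spleen (-1.96 ± 0.31 log2, adjusted p = 6.64e-05). Skin replicate 4 had the highest skin value, and without both replicates 4 the change of Pycard was -2.17 log2 (adjusted p = 9.57e-05). Tspan32, a tetraspanin of blood cells, fell, with 2.3 to 19.9 TPM in skin and 53.6 to 174 TPM in spleen (-3.96 ± 0.77 log2, adjusted p = 0.00093), and skin replicate 3, which held the most macrophage RNA of the skin libraries, was the highest of them.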
